A study of Mus musculus with 12 samples.

Results

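The genes described here are those of hepatic fatty acid oxidation, ketone body metabolism and the wider set of targets of the nuclear receptor PPARA, taken as a list of 31 symbols and looked up by symbol in the deposited gene table. All 31 were among its 38087 rows, and all 31 were also among the 14170 genes that passed the filter on low counts. The list holds 15 mitochondrial genes, 8 peroxisomal genes, 1 ketogenic gene and 7 regulators and other targets. Liver RNA had been sequenced from germ-free male mice (no microbiota) of strain C57BL/6j aged 13 to 16 weeks, in 12 libraries. The ghrelin group (n = 6) was given rat ghrelin subcutaneously each day for 5 days, 10 µg per mouse, at zeitgeber time 2 (hours counted from lights on). The PBS group (n = 6) was given phosphate-buffered saline on the same schedule and served as the control. Both groups lacked a microbiota and carried no labelled mutation, and no label states feeding, cage, or that each library is a separate animal, so p-values may measure a spread that is partly technical.

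During fasting, fatty acids reach the liver, bind FABP1 in the cytosol and are activated to acyl-CoA. Carnitine carries the long chains into mitochondria, where repeated cycles of dehydrogenation, hydration, dehydrogenation and thiolysis release acetyl-CoA, which is made into ketone bodies, while very long chains are first shortened in peroxisomes. PPARA, which binds DNA with RXR and is activated by fatty acids, drives many of these genes, and ghrelin is a stomach peptide best known for stimulating feeding and growth hormone release.

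PPARA and RXR bind a direct repeat of AGGTCA with a single base between the copies. The promoter windows of the members were searched on both strands for AGGTCA, any base (N), and AGGTCA again, with at most 2 mismatches outside the N, to show which members carry such letters next to their start. Windows ran from 250 bases before to 50 bases after a RefSeq start on GRCm38.p6, and 26 of the 31 members had one. Of those 26, 4 held a match (15.4%), against 1190 of 27025 genes with a window (4.40%). The stretches holding the 4 matches are shown 5′ to 3′ on the strand of the gene, with the matching letters in capitals. Where the match lies on the opposite strand (Fabp1 and Acot4) the capitals are its reverse complement.
Fabp1, chr6:71199712-71199826, plus strand, upstream of the first exon: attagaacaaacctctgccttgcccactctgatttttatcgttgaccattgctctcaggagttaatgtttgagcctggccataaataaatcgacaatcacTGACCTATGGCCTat
Slc25a20, chr9:108662134-108662162, plus strand, within the first exon: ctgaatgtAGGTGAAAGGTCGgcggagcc
Creb3l3, chr10:81092658-81092806, minus strand, before an internal start within an intron of the gene model: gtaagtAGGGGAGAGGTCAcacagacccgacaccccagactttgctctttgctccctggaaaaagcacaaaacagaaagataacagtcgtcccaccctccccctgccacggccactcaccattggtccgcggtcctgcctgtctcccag
Acot4, chr12:84038266-84038378, plus strand, upstream of the first exon: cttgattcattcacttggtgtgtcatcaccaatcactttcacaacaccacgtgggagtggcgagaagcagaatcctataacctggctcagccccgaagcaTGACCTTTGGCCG
The Fabp1 match, AGGCCATAGGTCA, had 1 mismatch and lay 67 to 55 bases before the RefSeq start. The GENCODE M21 gene begins further upstream, directly after the printed stretch, so that label and distance rest on different starts. The matches of the other 3 had 2 mismatches each, AGGTGAAAGGTCG for Slc25a20, AGGGGAGAGGTCA for Creb3l3 and CGGCCAAAGGTCA for Acot4. The Acot4 match reached the base before the start, and that of Slc25a20 began 7 bases after it. Such a match describes letters only and is not a measured binding site. In the ghrelin group Fabp1, Slc25a20 and Creb3l3 had the higher mean and Acot4 the lower.

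None of the 31 members changed at an adjusted p under 0.05. The comparison asks whether 5 daily doses of ghrelin left a difference in these transcripts, and edgeR's quasi-likelihood test called 15 of 14170 genes (0.106%), 6 higher (0.0423%) and 9 lower (0.0635%). The smallest adjusted p of any member was 0.229, that of Vnn1. DESeq2, run as an alternative, called 221 of the 11792 genes to which it gave an adjusted p (1.87%), and none of the 28 members among them. It gave no adjusted p for Acot2, Acot3 and Fgf21. It was run without the filter on low counts, and 6 members and 7.54% of 27402 genes had an unadjusted p under 0.05. That share includes genes too scarce for the filter, which all members passed. At an unadjusted p under 0.05 in edgeR's test there were 5 members (16.1%), Fabp1 and Creb3l3 with higher and Vnn1, Acot3 and Acot4 with lower means after ghrelin, where 13.4% of all tested genes passed that threshold (6.44% higher, 6.94% lower). No member had groups that did not overlap, a property of 0.826% of tested genes. Log2 fold changes were positive for 19 members and negative for 12, with a median of 0.05, and the median over all tested genes was 0.00. The number at an unadjusted p under 0.05 ranged from 3 to 10 as libraries were left out in turn, and no member was called in any of these fits. It was 3 without ghrelin 3, where 10.7% of all tested genes passed, and 8 without PBS 6 (13%), ghrelin 1 (11.7%) or ghrelin 6 (11.9%). It was 10 without ghrelin 2 (13.3%) or ghrelin 4 (15.2%). Without the 3 libraries of lowest total (ghrelin 1, 2 and 5) it was 9 (9.54%), and without the 2 libraries in which the acute phase gene Saa1 was highest (PBS 3 and 4) it was 1, Creb3l3 (8.47%), both omissions being chosen after the data were seen. It was 9 with library totals in place of scaling factors (12.7%) and 8 with the top 50 genes removed (13.3%). Without a filter it was 10, where the share was 9.32% of 27410 genes, scarce genes included.

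**Figure D1:**
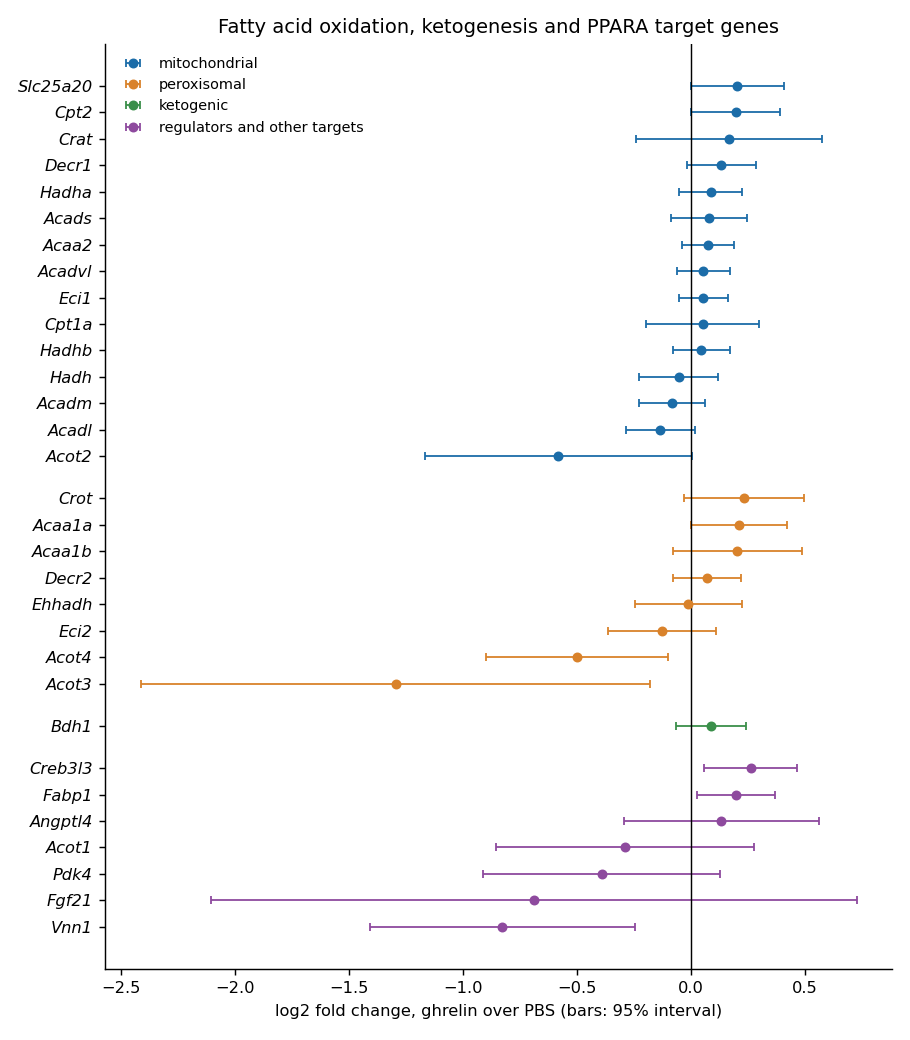
Log2 fold change of each of the 31 members, ghrelin over PBS (x axis), by gene (y axis), with points for estimates and bars for 95% intervals from edgeR, coloured by compartment. The intervals of Fabp1 and Creb3l3 lie above 0 and those of Vnn1, Acot4 and Acot3 below it, before adjustment for 14170 genes.

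Total counts per library ran from 15775059 to 22302533, and the ghrelin mean (18536889 ± 2398783) was below the PBS mean (20959324 ± 1378600, SD, n = 6 each) with p = 0.0671 in a two-sided exact permutation test. The 8 hepatocyte markers were all present, none was called, and their summed level was 94315 to 128020 counts per 1000000 counts (CPM) in PBS and 89305 to 105808 CPM in ghrelin libraries. Markers of neutrophils summed to 3.39 to 8.32 CPM in PBS and 0.791 to 4.01 CPM in ghrelin libraries with Camp at 0, those of adipocytes to 0.547 to 4.44 and 0.692 to 1.55 CPM, and those of skeletal muscle to at most 0.182 CPM. The 6 acute phase genes, all with negative log2 fold changes, summed to 2382 to 7488 CPM in PBS and 2280 to 4993 CPM in ghrelin libraries. In RNA of whole liver, fewer cells of a type and less RNA per cell cannot be told apart.

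The genes that bring long acyl chains into mitochondria overlapped between the groups. Cpt1a (chr19:3322334-3385733), the rate-controlling carnitine palmitoyltransferase of the outer membrane, ran from 355 CPM through a median of 484 to 524 CPM in PBS and from 378 through 468 to 589 CPM in ghrelin libraries. Its medians and means pointed in opposite directions, and its log2 fold change was 0.05 ± 0.12 (SE, n = 6 and 6) with an edgeR adjusted p of 0.894. Its sign turned to -0.01 without PBS 5, its lowest library, and without ghrelin 5, its highest, omissions that could only lower the value. Slc25a20, the translocase that exchanges acylcarnitine for carnitine across the inner membrane, ran from 64.5 through 70.2 to 84.7 CPM in PBS and from 72.8 through 78.1 to 102 CPM after ghrelin. Cpt2, which rebuilds acyl-CoA on the inner side, ran from 96.0 through 100 to 110 CPM in PBS and from 94.9 through 109 to 141 CPM after ghrelin. In both genes the libraries ghrelin 2 and ghrelin 5 stood above the other 4 ghrelin libraries. The log2 fold change was 0.20 ± 0.10 (SE) for Slc25a20 and 0.20 ± 0.09 (SE) for Cpt2, with edgeR adjusted p of 0.375 and 0.374.

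Crat, the carnitine acetyltransferase that handles acetyl and other short acyl groups, had a pattern of single libraries. Its level was 33.6 CPM in PBS 1 and 17.6 to 20.6 CPM in the other 5 PBS libraries. It was 35.4 and 33.8 CPM in ghrelin 2 and ghrelin 5 and 18.4 to 20.6 CPM in the other 4. The 3 high libraries thus came from both groups, and no library lay between 20.6 and 33.6 CPM. The log2 fold change was 0.17 ± 0.19 (SE), and it was 0.34 without PBS 1, 0.04 without ghrelin 2 and 0.06 without ghrelin 5. It was -0.17 without the 3 libraries of lowest total, which include ghrelin 2 and ghrelin 5. Each of these omissions took away high libraries of a single group, so the direction of the shift was fixed in advance.

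The enzymes of the mitochondrial spiral had log2 fold changes close to 0. Leaving out Crat and the thioesterase Acot2, the other 13 mitochondrial members had log2 fold changes from -0.14 to 0.20. The 4 acyl-CoA dehydrogenases, which take the first step for chains of decreasing length, were split in sign. Very long-chain Acadvl averaged 328 ± 12.2 CPM in PBS and 341 ± 17.8 CPM after ghrelin (SD, n = 6 each), and short-chain Acads 102 ± 8.89 and 108 ± 11.6 CPM. Long-chain Acadl averaged 131 ± 12.6 and 119 ± 8.26 CPM, and medium-chain Acadm 276 ± 21.3 and 260 ± 20.4 CPM. The log2 fold changes were 0.05 for Acadvl, 0.08 for Acads, -0.14 for Acadl and -0.09 for Acadm, and the groups overlapped in all 4. For Acadvl the 95% interval of the log2 fold change was -0.06 to 0.17, and for Acadm it was -0.23 to 0.06, so that these data limit the size of a difference more tightly than for the scarcer members.

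Hadha and Hadhb encode the subunits of the trifunctional protein, which carries out the later steps on long chains. Hadha averaged 314 ± 13.9 CPM in PBS and 334 ± 30.4 CPM after ghrelin, and Hadhb 97.6 ± 5.63 and 101 ± 6.91 CPM (SD, n = 6 each). Hadh, the hydroxyacyl-CoA dehydrogenase for shorter chains, averaged 190 ± 22.6 and 183 ± 14.5 CPM. Acaa2, the thiolase that cleaves off acetyl-CoA, averaged 674 ± 35.2 and 708 ± 24.3 CPM, with a log2 fold change of 0.07 (95% interval -0.04 to 0.19). Eci1 and Decr1 prepare double bonds of unsaturated chains for the spiral. Eci1 averaged 74.6 ± 3.37 and 77.4 ± 3.22 CPM and Decr1 140 ± 9.02 and 153 ± 15.8 CPM. No mitochondrial member reached an unadjusted p under 0.05 in edgeR's test, with a smallest adjusted p of 0.374.

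The peroxisomal members comprised 6 abundant genes and 2 scarce thioesterases, with 4 positive and 4 negative log2 fold changes and a median of 0.03. Ehhadh, the bifunctional enzyme of peroxisomal oxidation, ran from 164 CPM through a median of 228 to 251 CPM in PBS and from 192 through 209 to 262 CPM after ghrelin. The highest and lowest of its 12 values lay in different groups, and its log2 fold change was -0.01 ± 0.11 (SE), a sign that 5 of the 12 single-library omissions turned. Crot, which converts shortened chains to carnitine esters for export to mitochondria, ran from 557 through 622 to 772 CPM in PBS and from 564 through 770 to 975 CPM after ghrelin. Its log2 fold change was 0.23 ± 0.12 (SE, edgeR adjusted p = 0.437), and it was 0.00 without the 3 libraries of lowest total. The peroxisomal thiolases Acaa1a and Acaa1b averaged 98.0 ± 8.42 and 311 ± 61.8 CPM in PBS and 113 ± 19.0 and 358 ± 61.4 CPM after ghrelin. Their log2 fold changes were 0.21 and 0.20, and the groups overlapped in both. The 2 genes share sequence, so reads may be split between them. Of the 125-base windows of the longest Acaa1b transcript, 17.4% also occur in other genes, most often in Acaa1a. Decr2 and Eci2, the peroxisomal counterparts of Decr1 and Eci1, had log2 fold changes of 0.07 (means of 149 and 157 CPM in PBS and ghrelin) and -0.13 (means of 187 and 171 CPM).

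The 4 thioesterase members Acot1 to Acot4, which release free fatty acid from acyl-CoA, lie in a cluster on chromosome 12 and had lower means after ghrelin. Acot4 (chr12:84038379-84048601), a peroxisomal enzyme, ran from 6.98 CPM through a median of 9.19 to 14.9 CPM in PBS and from 4.95 through 6.83 to 9.54 CPM after ghrelin. Only ghrelin 2 and ghrelin 4 lay above the lowest PBS library, and PBS 1 and PBS 4 lay above every ghrelin library. Its log2 fold change was -0.50 ± 0.19 (SE), with an edgeR p of 0.0169 and an adjusted p of 0.276. Acot3 (chr12:84052144-84060402), also peroxisomal, ran from 0.350 through 0.846 to 2.51 CPM in PBS and from 0.0990 through 0.288 to 1.01 CPM after ghrelin. The 4 libraries ghrelin 3 to ghrelin 6 were below every PBS library, but on raw counts of only 2, 7, 4 and 5, where PBS 5 had 8. Acot3 was thus near the detection limit, and the order of these libraries rests on few reads. Its log2 fold change was -1.30 ± 0.52 (SE) with an edgeR p of 0.0258 and an adjusted p of 0.307. Without PBS 1, the highest library of both genes, the log2 fold changes were -0.35 for Acot4 and -0.84 for Acot3. Taking away the highest PBS value fixed a smaller difference in advance.

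Acot2, the mitochondrial form, ran from 1.004 CPM through a median of 1.93 to 2.03 CPM in PBS and from 0.595 through 1.01 to 2.26 CPM after ghrelin. Acot1, the cytosolic form, ran from 5.70 through 10.3 to 16.4 CPM in PBS and from 5.61 through 7.55 to 15.8 CPM after ghrelin. In both, ghrelin 2 was the highest ghrelin library, and in Acot2 it was the highest of all 12. The log2 fold changes were -0.58 ± 0.27 (SE) for Acot2 and -0.29 ± 0.27 (SE) for Acot1, with edgeR adjusted p of 0.374 and 0.673. Without PBS 1 the value for Acot1 was -0.12, and without ghrelin 2 it was -0.53. Each omission took away the highest Acot1 library of its group, so the direction of each shift was fixed in advance. Of the 125-base windows of Acot2, 13.7% were shared with other genes, most often with Acot1. Of those of Acot3, 12.7% were shared, most often with Gm49366, a model on the same strand whose exons overlap those of Acot3 and Acot4. The counts of these genes are therefore uncertain. The strand setting of the counting is also not given, which adds to the uncertainty of members whose exons overlap a gene on the opposite strand. These are Acot3 and Acot4 (4732463B04Rik), Acadvl (Dvl2), Acaa1a (Myd88), Acaa1b (Dlec1), Bdh1 (Gm15743), Crat (Dolpp1 and Gm16323), Crot (Gm37153), Eci2 (Gm16984) and Hadha (Garem2).

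**Figure D2:**
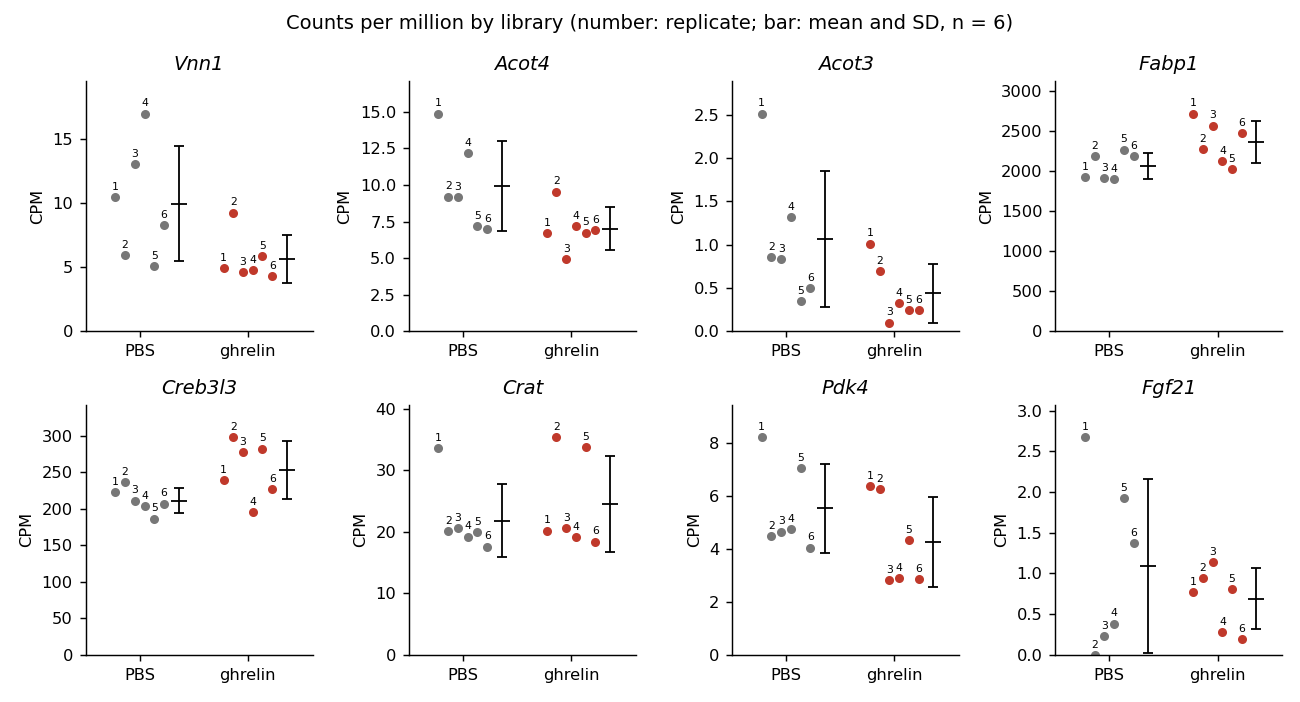
Level in CPM (y axis, from 0) in each PBS (grey) and ghrelin (red) library for 8 members, with the replicate number above each point and a bar for mean and SD (n = 6). The groups overlap in every panel, the 3 highest Crat values belong to PBS 1, ghrelin 2 and ghrelin 5, and Vnn1 is highest in PBS 4 and PBS 3.

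The ketogenic member, Bdh1, makes 3-hydroxybutyrate from acetoacetate. It ran from 126 CPM through a median of 149 to 158 CPM in PBS and from 135 through 152 to 174 CPM after ghrelin. The groups overlapped over most of their range, and the log2 fold change was 0.09 ± 0.07 (SE, 95% interval -0.07 to 0.24, edgeR adjusted p = 0.639). Of 9 other ketone body genes, 5 had positive and 4 negative log2 fold changes, and none was called. With an unadjusted p under 0.05 there were 1 higher and 1 lower, where 13.4% of all tested genes passed. The 2 with the smallest p are named. Oxct1, the enzyme that extrahepatic tissues use to consume ketone bodies, averaged 6.24 ± 0.844 CPM in PBS and 8.87 ± 1.40 CPM after ghrelin (SD, log2 fold change 0.51, edgeR adjusted p = 0.127). Slc16a7, a monocarboxylate transporter, averaged 38.8 ± 8.83 and 25.9 ± 3.84 CPM (log2 fold change -0.58, edgeR adjusted p = 0.129).

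Among the regulators and other targets, Vnn1 (chr10:23894688-23905343) had the smallest p of all members. It encodes pantetheinase, which frees pantothenate and cysteamine. Vnn1 ran from 5.08 CPM through a median of 9.34 to 16.9 CPM in PBS and from 4.32 through 4.85 to 9.23 CPM after ghrelin. The ghrelin libraries sat close together apart from ghrelin 2, and 5 of the 6 PBS libraries lay above the other 5 ghrelin libraries. The fitted level after ghrelin was 56.3% of that in PBS, a log2 fold change of -0.83 ± 0.27 (SE, 95% interval -1.41 to -0.25). In edgeR's test it had a p of 0.00827 and an adjusted p of 0.229. Saa1 was highest in PBS 3 and PBS 4 (1225 and 1159 CPM) and 41.6 to 697 CPM in the other 10 libraries, and the same pair had the highest Vnn1. Next in Saa1 were ghrelin 4, ghrelin 5 and PBS 2 (697, 484 and 321 CPM), with Vnn1 at 4.75, 5.82 and 5.94 CPM. In the remaining libraries Vnn1 ran from 4.32 to 10.4 CPM at Saa1 of 41.6 to 168 CPM. Without PBS 3 and PBS 4 the log2 fold change of Vnn1 was -0.41 with an edgeR adjusted p of 0.666. That omission took away the 2 highest Vnn1 values, both in PBS, so a smaller difference was fixed in advance. The part of the acute phase in the Vnn1 difference was not tested.

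Fabp1 (chr6:71199827-71205023), the abundant fatty acid carrier of the hepatocyte cytosol, ran from 1900 CPM through a median of 2056 to 2268 CPM in PBS and from 2025 through 2373 to 2718 CPM after ghrelin. The 4 libraries ghrelin 1, 2, 3 and 6 were above every PBS library, and ghrelin 4 and ghrelin 5 lay within the PBS range. Its log2 fold change was 0.20 ± 0.08 (SE), a fitted level of 115% of that in PBS, with an edgeR p of 0.0284 and an adjusted p of 0.315. Creb3l3 (chr10:81084324-81098874), a membrane-bound transcription factor of the liver that is known to act with PPARA, ran from 187 through 209 to 236 CPM in PBS and from 195 through 258 to 298 CPM after ghrelin. Again 4 ghrelin libraries exceeded every PBS library, here ghrelin 1, 2, 3 and 5. Its log2 fold change was 0.26 ± 0.10 (SE) with an edgeR p of 0.0156 and an adjusted p of 0.271, and it was 0.14 without the 3 libraries of lowest total.

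Fgf21, the fasting hormone that the liver secretes, was near the detection limit. Its raw counts in PBS 1 to 6 were 51, 0, 5, 7, 44 and 30, and in ghrelin 1 to 6 they were 13, 15, 23, 6, 13 and 4. The count of 0 in PBS 2 allows a level of up to 0.136 CPM, taking 3 counts as the limit and counting error alone. The PBS libraries thus covered the range of the ghrelin libraries and more, and the log2 fold change of -0.69 ± 0.67 (SE) had a 95% interval from -2.11 to 0.73. It was -0.23 without PBS 1 and -0.44 without PBS 5, the 2 libraries with the most counts. Both omissions took away high PBS values, so a smaller difference was fixed in advance. Pdk4, the kinase that shuts pyruvate dehydrogenase when fat is burned, ran from 4.06 CPM through a median of 4.72 to 8.22 CPM in PBS and from 2.82 through 3.63 to 6.37 CPM after ghrelin. Ghrelin 3, 4 and 6 lay below every PBS library, and the log2 fold change was -0.39 ± 0.24 (SE, edgeR adjusted p = 0.510). It was -0.24 without PBS 1, the highest library of Pdk4, an omission that fixed a smaller difference in advance. Angptl4, a secreted inhibitor of lipoprotein lipase, ran from 112 through 158 to 245 CPM in PBS and from 106 through 193 to 243 CPM after ghrelin. Its ranges nearly coincided, with a log2 fold change of 0.13 ± 0.20 (SE). It ran from 0.03 without ghrelin 2 to 0.29 without PBS 1, the highest library of each group, so both directions were fixed in advance. Without the 3 libraries of lowest total it was -0.27, and 19 of 21 alternative fits kept its sign.

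Sign and level went together among the members. The 7 members with a PBS mean under 12 CPM, a split chosen after the values were seen, had means from 1.06 to 10.7 CPM and all had negative log2 fold changes, with a median of -0.58. They were the 4 thioesterases, Fgf21, Pdk4 and Vnn1. Of the 24 members above that level, 19 had positive and 5 negative values, between -0.14 and 0.26. Among all tested genes the share with a negative log2 fold change was 45.8% of 7138 under 12 CPM and 54.3% of 7032 above it.

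Divided by the length of all exons, the PBS levels of the members spanned from Fabp1 at 3732 ± 302 CPM per kb to Acot3 at 0.309 ± 0.229 CPM per kb (SD, n = 6). The order depends in part on the length used, and the longest transcript in place of all exons served as a second scale. On both scales Fabp1 lay above Acaa2 (444 CPM per kb) and Acaa2 above the next gene in every PBS library. Acaa1b, Acadvl and Crot followed on both, at 159, 122 and 117 CPM per kb over all exons and 184, 151 and 214 CPM per kb over the longest transcript, with Crot first on the second scale and overlapping Acaa1b on both. Crot stood above Ehhadh in every PBS library on both scales, with Ehhadh at 74.8 CPM per kb on each. In the middle of the order Cpt1a was at 60.6 or 107, Cpt2 at 42.3 or 42.6 and Bdh1 at 37.3 or 45.9 CPM per kb. Hadha was at 36.0 CPM per kb over all exons and 78.2 over its longest transcript. Acaa1a and Slc25a20 did not overlap over all exons (22.2 and 14.95 CPM per kb) but did over the longest transcript (26.7 and 26.3 CPM per kb). Hadhb was separate from the gene after it on both scales, and Vnn1, Crat, the 4 thioesterases, Pdk4 and Fgf21 all lay below it, each overlapping its neighbour.

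The spread within groups differed widely among the members. The biological coefficient of variation, edgeR's estimate of the spread between libraries beyond counting error, was 0.0774 for Eci1, 0.0890 for Hadhb and 0.0920 for Acadvl. It was 0.797 for Fgf21, 0.546 for Acot3, 0.316 for Vnn1, 0.313 for Acot1 and 0.282 for Pdk4. Fgf21 was at the 99.9th percentile of all tested genes. Angptl4 (0.248) and Crat (0.231) were at the 90.2nd and 87.7th percentile, at higher counts than those 5. The 13 mitochondrial members other than Crat and Acot2 lay between 0.0774 and 0.155, where the common value over all genes was 0.145 and the median 0.123. They ran from the 2.80th percentile (Eci1) to the 67.4th (Cpt1a), with Slc25a20 and Cpt2 at the 52.0th and 51.1st.

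**Figure D3:**
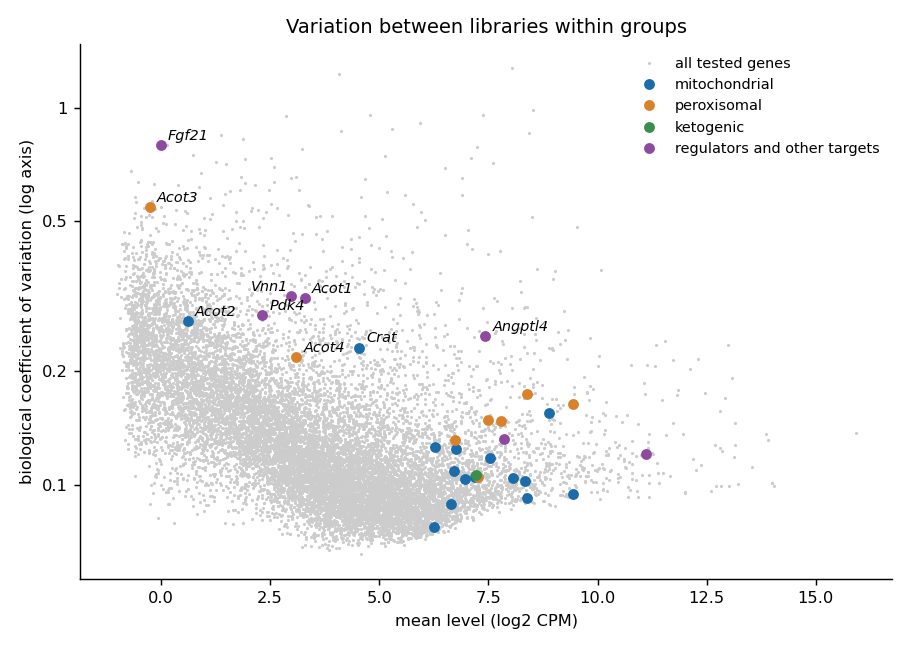
Biological coefficient of variation (y axis, log scale) against mean level in log2 CPM (x axis) for the 31 members, coloured by compartment, and for all 14170 tested genes in grey. All mitochondrial members but Crat and Acot2 lie between 0.0774 and 0.155, and Fgf21 at 0.797 and Acot3 at 0.546 lie above most genes of a similar level.

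Many members were high or low in the same libraries, and these libraries came from both groups. In ghrelin 2 all 31 members were above their mean over the 12 libraries, by a median of 0.24 on the log2 scale. In PBS 1 this held for 26 members and in ghrelin 5 for 20. In ghrelin 4 it held for 3 members and in ghrelin 6 for 2, so the highest and the lowest libraries were both in the ghrelin group. The share of all tested genes above their mean in each library was not taken. These counts therefore cannot tell a pattern of the members from one of the whole library. For 15 members (48.4%) ghrelin 2 and ghrelin 5 were both above the other 4 ghrelin libraries, as against 10.9% of all tested genes. Those 15 were Cpt1a, Cpt2, Slc25a20, Acadl, Acads, Hadha, Crat, Acot2, Acaa1a, Acaa1b, Decr2, Eci2, Acot1, Vnn1 and Creb3l3. PBS 1 was the highest PBS library for 19 members (61.3%) and for 16.9% of all tested genes. These libraries were picked after their values were seen, and members share each library. Ghrelin 2, 1 and 5 also had the lowest total counts (15775059, 16553401 and 16920864), and the part of depth in the pattern was not tested.

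**Figure D4:**
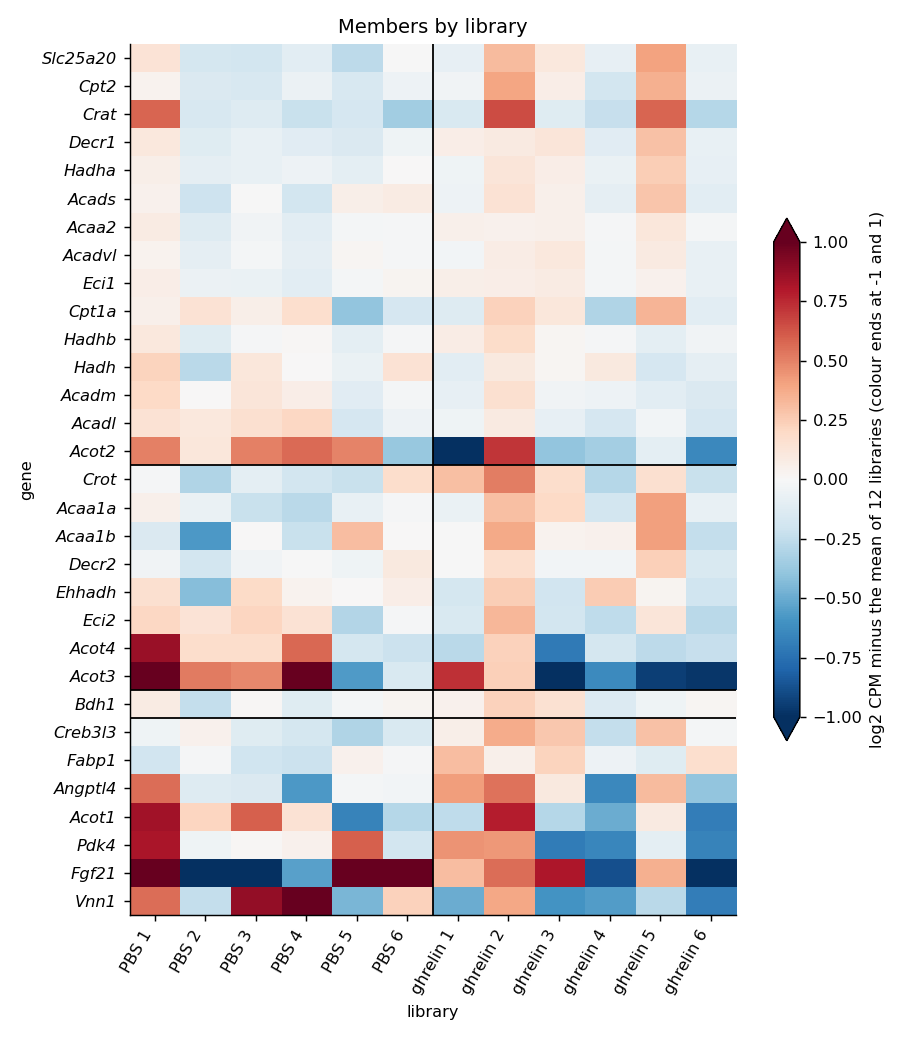
Log2 CPM of each member (rows) in each library (columns) minus its mean over the 12 libraries, in red where above and blue where below, with black lines between groups and compartments. The ghrelin 2 column is above the mean in all 31 rows, and the ghrelin 4 and ghrelin 6 columns are below it in all but 3 and 2 rows.

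The rest of the pathway was read from 122 other genes in 5 lists, of which 115 were tested and none was called. At an unadjusted p under 0.05 there were 14 with higher and 9 with lower means (20% together, where 13.4% of all tested genes passed). Among 27 tested mitochondrial oxidation genes 12 log2 fold changes were positive and 15 negative, with 3 higher and 1 lower at that threshold. Acsl1, which activates long-chain fatty acids, averaged 880 ± 176 CPM in PBS and 1035 ± 184 CPM after ghrelin. Acsm3, a medium-chain acyl-CoA synthetase, averaged 172 ± 18.0 and 143 ± 9.93 CPM, with a log2 fold change of -0.26 and an edgeR adjusted p of 0.189. Etfb, a subunit of the flavoprotein that takes electrons from the dehydrogenases, and Acad12, an acyl-CoA dehydrogenase family member, had log2 fold changes of 0.16 and 0.32.

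Among 24 tested peroxisomal genes 17 were positive and 7 negative. At an unadjusted p under 0.05 there were 4 higher and 2 lower, where 13.4% of all tested genes passed. Amacr, the racemase for branched chains, ran from 101 through 111 to 117 CPM in PBS and from 120 through 136 to 151 CPM after ghrelin. It was 1 of 3 of the 115 other tested genes whose groups did not overlap, with Slc27a2 and Slc25a42, where 0.826% of all tested genes had this property. Amacr had a log2 fold change of 0.31 ± 0.06 (SE, edgeR adjusted p = 0.0956). Acox3, the oxidase for branched chains, had 0.24 and Abcd2, a peroxisomal importer of very long chains, -1.50, with edgeR adjusted p of 0.161 and 0.147.

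Of 20 genes for PPARA and its partners 7 log2 fold changes were positive and 13 negative. With an unadjusted p under 0.05 there were 2 higher and 3 lower (13.4% of all tested genes passed). Ppara itself ran from 97.0 CPM through a median of 137 to 152 CPM in PBS and from 116 through 172 to 208 CPM after ghrelin. Ghrelin 2, 3, 5 and 6 lay above every PBS library, with a log2 fold change of 0.34 ± 0.13 (SE, edgeR adjusted p = 0.297). Ppargc1a, the fasting-induced coactivator of PPARA, ran from 17.1 through 26.1 to 37.7 CPM in PBS and from 8.76 through 12.1 to 17.5 CPM after ghrelin. The groups met only at PBS 4, ghrelin 1 and ghrelin 2, and the log2 fold change was -1.06 ± 0.20 (SE) with an edgeR adjusted p of 0.0564, the smallest of the 115 genes. Lpin1, a phosphatidate phosphatase that also acts as a coactivator, and Pparg, the adipocyte paralogue of PPARA, had log2 fold changes of -0.78 and -0.79 with edgeR adjusted p of 0.203 and 0.191.

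Of 35 tested other PPARA targets 18 log2 fold changes were positive and 17 negative. With an unadjusted p under 0.05 there were 4 higher and 2 lower (13.4% of all tested genes passed). Plin2, which coats lipid droplets, averaged 267 ± 39.1 CPM in PBS and 400 ± 131 CPM after ghrelin (log2 fold change 0.58 ± 0.18, SE, edgeR adjusted p = 0.204). Its highest values, 562 and 538 CPM, were in ghrelin 2 and ghrelin 5. Cyp4a10 and Cyp4a14, fatty acid hydroxylases known as strongly PPARA-dependent, varied widely within groups. Cyp4a10 ran from 30.4 to 230 CPM in PBS and from 22.0 to 261 CPM after ghrelin, and Cyp4a14 from 4.56 to 237 CPM and from 4.65 to 76.4 CPM. Their log2 fold changes of 0.12 ± 0.56 and -1.14 ± 0.81 (SE) do not fix a direction. Gpd1, a glycerol phosphate dehydrogenase, and Slc25a42, the mitochondrial carrier of coenzyme A, had log2 fold changes of 0.39 and 0.46 with edgeR adjusted p of 0.124 and 0.115.

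**Figure D5:**
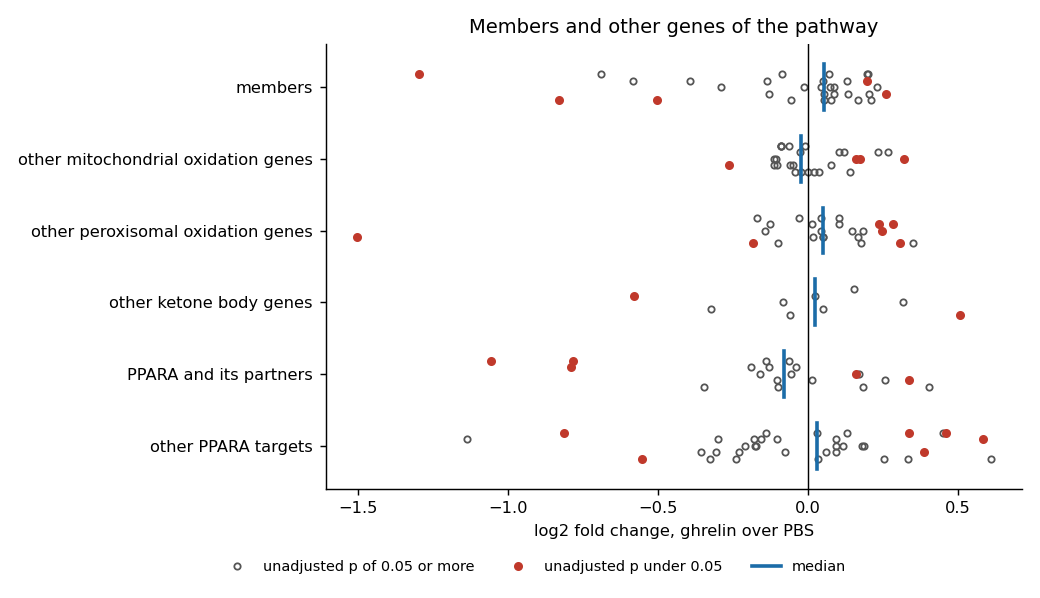
Log2 fold change, ghrelin over PBS (x axis), of the members and of the 5 lists of other genes of the pathway (y axis), with filled red points for an unadjusted p under 0.05, open points for the rest and blue lines at each median. All 6 medians lie close to 0, and Abcd2 at -1.50 and Ppargc1a at -1.06 are the lowest of the filled points outside the members.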

How the data were processed

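Total liver RNA was measured in 12 libraries as raw exon counts per gene, whole numbers that the authors deposited without normalisation. Per the labels' protocols, 250 ng of RNA per sample went into a stranded kit with ribosomal depletion, 12 PCR cycles and 125 read cycles from each end. The submitters' processing notes name STAR 2.4.0i and mm10. The counting tool, annotation, strand setting and handling of multiply matching reads were not given in the sources used here.

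The edgeR 4.0.16 filter filterByExpr (at least 10 counts, 15 in total; R 4.3.3) left 14170 of 38087 genes, which were scaled by TMM. The 6 ghrelin libraries were compared with the 6 PBS libraries by the two-sided quasi-likelihood test, with Benjamini-Hochberg adjustment over all tested genes and a threshold of 0.05 for calls. CPM use the TMM-scaled totals. SEs were derived from the fold change and its F statistic. The script was tested on simulated data. DESeq2 1.42.0, other scalings and filters, a replicate block and the omission of libraries were alternatives. Positions, exon lengths and shared windows come from GENCODE M21, and promoter sequences from RefSeq. Protein sequences were not used here. Groups and numbers come from titles and treatment labels.

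The members and lists were chosen with earlier results of these data known. All members are given. Of each other list, called genes, the 3 with the smallest p and preset genes (among them Ppara, Ppargc1a, Cyp4a10, Cyp4a14, Plin2 and Acsl1) are named, and some genes that this rule takes in are not reported here. Below the filter lay 7 listed genes, of which Cpt1c had the most counts (62 in all libraries). Markers of Kupffer, stellate, endothelial and bile duct cells were also read, and none was called. Their summed CPM ran from 157 to 289 in PBS and 207 to 264 in ghrelin libraries for Kupffer cells, 240.1 to 277 and 257 to 311 for stellate cells, 338 to 384 and 345 to 375 for endothelial cells, and 20.5 to 32.9 and 24.9 to 32.3 for bile duct cells. Counting limits cover counting error only, since PCR copies are not independent molecules.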

Additional observations from a re-analysis of the deposited data

Results flagged for a closer look

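Single libraries stood far from the other 5 of their group for 8 of 104 groups (52 genes, 2 groups each), with a gap to the nearest library above Dixon's 95% critical share of the group's whole range. Chance flags about 1 in 20 groups, but these genes share the same 12 libraries and some were picked by their p. The flags are therefore not independent, and that rate is no test of their number. Among the members, Crat was high in PBS 1 at 33.6 CPM, with the next library at 20.6 CPM. Decr1 was high in the same library at 157 CPM, the next being 142 CPM. Acadm was high in ghrelin 2 at 299 CPM, the next being 261 CPM. Vnn1 was also high in ghrelin 2, at 9.23 CPM against 5.82 CPM in the next library. Ehhadh was low in PBS 2 at 164 CPM, with the next library at 221 CPM. Among the other genes named, Etfb (161 CPM) and Plin2 (345 CPM) were high in PBS 1, and Acsm3 was low in PBS 5 at 136 CPM. Of the 8 libraries so marked, 4 were PBS 1 and 2 were ghrelin 2, the libraries in which most members were above their mean.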

How the results depend on the processing

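In 21 alternative fits no member with an adjusted p was called (28 members with DESeq2, which gave none for Acot2, Acot3 and Fgf21). The smallest was 0.0731 for Vnn1 with DESeq2, and 25 of 31 members kept their sign. Genes called numbered 15, or 0.106% of those tested, against 221 with DESeq2, 63 without a filter, and 0 to 32 with 1 library left out. Without PBS 3 there were 5, without PBS 5 24, without PBS 6 23, without ghrelin 2 9, without ghrelin 4 32, without ghrelin 6 6, and 0 without ghrelin 1 or ghrelin 3. Members at an unadjusted p under 0.05 numbered 5, where 13.4% of all tested genes passed. They numbered 9 with library totals only (12.7% of tested genes), 10 without a filter (9.32%) and 8 with the top 50 genes removed (13.3%). With 1 library left out they numbered 3 to 10, where 10.4% to 15.2% of tested genes passed. With the replicate number as a block, 58 genes and no member were called. Same-numbered libraries correlated at -0.0810 to 0.272, and 4 of 12 correlated best with their own number. No label states a pairing, and these values cannot show whether the numbers pair libraries.

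Leaving out the 3 libraries of lowest total (ghrelin 1, 2 and 5), chosen after seeing the data, left 0 genes called and 9 members at an unadjusted p under 0.05 (9.54% of tested genes). Signs then turned for Cpt1a (-0.0802), Acads (-0.0137), Crat (-0.17), Decr2 (-0.0364) and Angptl4 (-0.27). Leaving out the 2 of highest Saa1 (PBS 3 and 4), likewise chosen after seeing the data, left 9 genes called and 1 member, Creb3l3, at that threshold (8.47% of tested genes), with Ehhadh at 0.0375 and Angptl4 at -0.0056. With 1 library left out, Ehhadh ran from -0.0845 to 0.0273, above 0 in 5 cases, and Cpt1a from -0.0133 to 0.112, below 0 in 2. The difference in total counts was -3006582 to -1870069, past the threshold without PBS 4 (-2864980) or ghrelin 4 (-3006582). The cause of these shifts was not tested. A mean of at least 1 CPM left 29 members, without Acot3 and Fgf21. Counts per library were only 0 to 51 for Fgf21 and 2 to 48 for Acot3.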
